A study of Mus musculus with 24 samples.

Results

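The mRNAs described here encode the mitochondrial protein import machinery. Members were the probe sets of the Affymetrix Mouse 430 2.0 array whose annotation gives a single gene symbol that starts with Timm or Tomm, or is Samm50, Mtx1, Mtx2, Pmpca, Pmpcb, Grpel1, Grpel2 or Pam16. This gave 64 of the 45037 probe sets, for 32 of the 18193 genes with a symbol of their own, and 14 of the 32 genes had 1 probe set. The probe sets of Tomm5 and Tomm6 carry a further symbol each and fell outside the rule.

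The tissue was cortex from FVB males aged 7 postnatal days. The mice were either wild type (WT) or lacked Fmr1 (Fmr1 KO), the X-linked gene of the RNA-binding protein FMRP, whose silencing causes fragile X syndrome. The study was laid out with 6 littermate pairs. Cortices of 2 mice of 1 genotype, with the white matter removed, were pooled for each lysate, so a replicate is a pool. The lysate was cleared in steps, the last at 20000 g, and 20% of it was kept as total RNA, which is therefore cytoplasmic. The rest ran through a 20 to 50% sucrose gradient, and fractions 10 to 13 of 16, which hold mRNAs with at least 6 ribosomes, made up the polyribosomal RNA. Each of the 4 groups, WT and Fmr1 KO in polyribosomal and in total RNA, held 6 arrays.

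Nearly all mitochondrial proteins are encoded in the nucleus, made on cytosolic ribosomes and imported through membrane complexes. The TOM complex of the outer membrane is the common entry gate, and the SAM complex inserts barrel proteins there. Small TIM chaperones carry hydrophobic proteins across the intermembrane space, TIM22 inserts carrier proteins into the inner membrane, and TIM23 with its Hsp70 motor passes presequence proteins to the matrix, where the processing peptidase removes the presequence. Neurons depend on imported respiratory enzymes, and loss of TIMM8A causes a human deafness and dystonia syndrome.

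Values were GCRMA log2 values, whose median lay between 3.17 and 3.20 on every array, and arrays within a group correlated at 0.991 to 0.998 (Pearson's r). As a check of the labels, all 3 Fmr1 probe sets had Fmr1 KO values below the lowest WT value, within polyribosomal and within total RNA (exact permutation p = 0.00216, two-sided, the smallest that 924 splits allow). In all arrays the markers of excitatory neurons (4 of 4), interneurons (5 of 5), astrocytes (5 of 5) and the oligodendrocyte lineage (4 of 4) reached a log2 value of 4. Microglia had 2 of 5 markers there, endothelium 1 of 3 in polyribosomal and 0 of 3 in total RNA, and blood 0 of 2. None of the 3 choroid plexus markers reached 4 on every array, but Ttr, the most abundant of them, differed widely between arrays, from 3.74 to 12.19 in WT and from 2.82 to 12.14 in Fmr1 KO polyribosomal RNA, and from 3.37 to 11.43 and 2.65 to 11.30 in total RNA. Its part in the results was not tested. A probe set was tested where it reached 4 on at least 6 arrays of a comparison. All adjusted p-values below are from limma with Benjamini-Hochberg adjustment over all probe sets tested, and called means an adjusted p under 0.05. The replicates are biological pools, and their number limits the precision. Polyribosomal and total arrays of one replicate number are taken here as 1 lysate, which the labels do not state, so differences per lysate rest on that reading of the numbers.

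The import machinery mRNAs split evenly between polyribosomal and total RNA. In WT, 13 of 30 tested member genes rose in polyribosomal RNA and 13 fell, while 37.5% of all 9725 genes tested rose and 28.4% fell. The differences of the members ran from -3.53 to 0.98 on the log2 scale, with a median of -0.16, beside a median of 0.09 over all genes. Fmr1 KO cortex gave 13 rises and 12 falls among the same 30 genes, with 38.7% of all genes higher and 28.2% lower there. The median of the members was -0.02 and their range -3.07 to 1.05. No member was called in opposite directions, and 25 were called the same way in both genotypes, 13 of them higher and 12 lower. The WT and Fmr1 KO comparisons share no array, and over the 30 genes their differences correlated at r = 0.995 (Spearman's rho 0.991), beside r = 0.979 over the 9647 genes tested in both. This is a description across genes of 1 array set, and genes are not independent replicates. Arrays were brought to a common scale by the authors, so a fall means less of that mRNA relative to the others in the pool, not a count of molecules. The pool takes mRNAs with at least 6 ribosomes. An mRNA carrying fewer lies outside it, and the part of coding length in the falls was not tested.

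**Figure D1:**
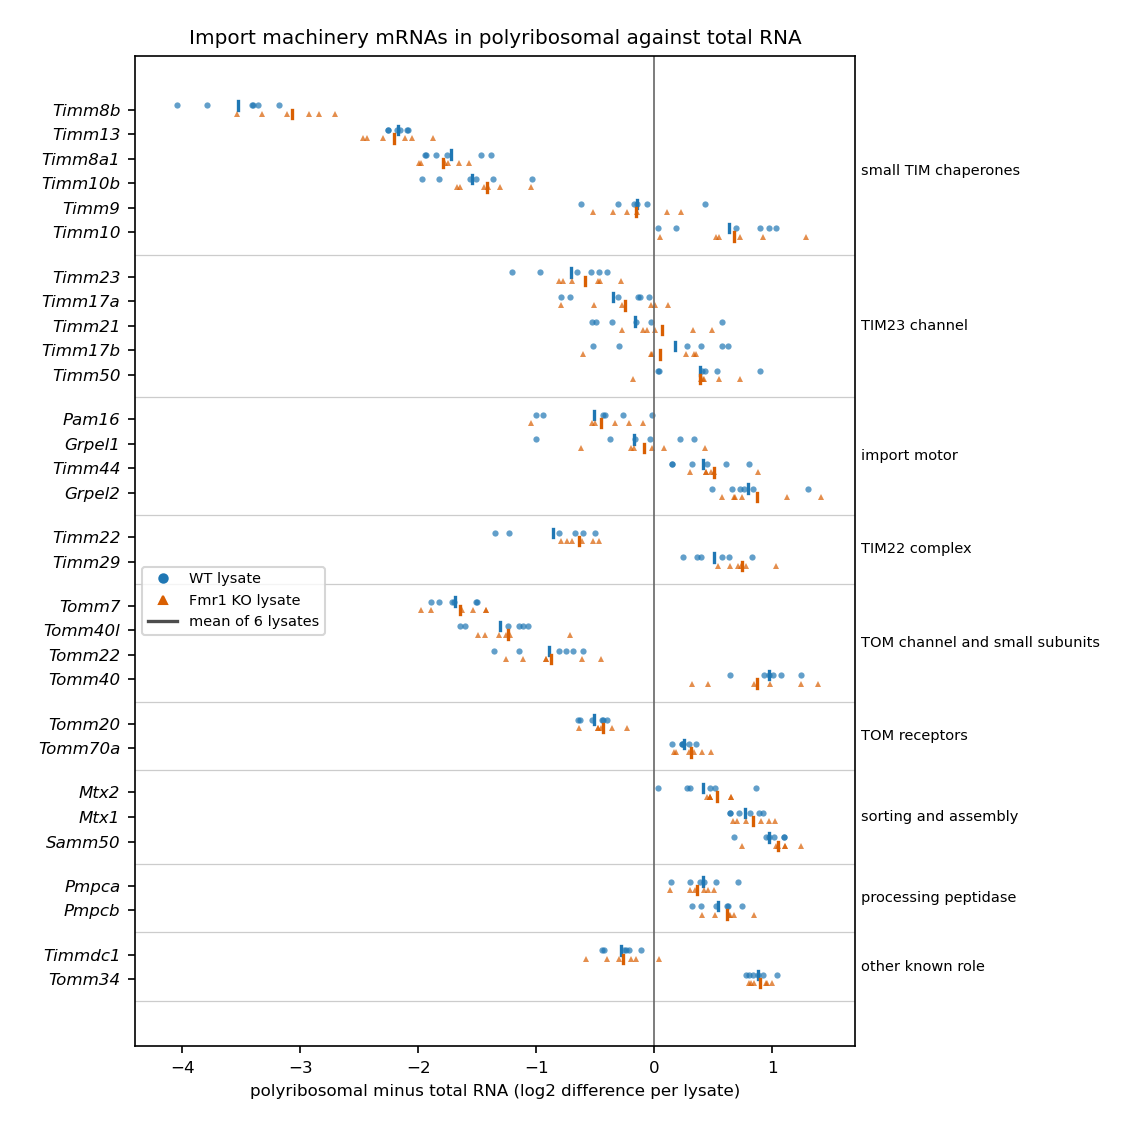
Polyribosomal minus total RNA for the 30 tested member genes, grouped by role. The x axis is the log2 difference within a lysate, each symbol is 1 replicate number, taken as 1 lysate (WT circles, Fmr1 KO triangles) and the short bars are means of 6 lysates. Timm8b lies farthest left, with means of -3.53 in WT and -3.07 in Fmr1 KO, and Tomm40, Samm50 and Tomm34 lie right of 0 in every lysate.

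The difference varied between lysates, and its range over 6 lysates had a median of 0.698 over the members in WT, from 0.172 for Timm13 to 1.34 for Grpel1, and of 0.606 in Fmr1 KO. In WT each of the 26 called members moved the same way in 6 of 6 lysates, as did 23 of 25 in Fmr1 KO, a count that the calls themselves largely fix. Over all genes tested 65.9% in WT and 66.9% in Fmr1 KO were called in either direction. Polyribosomal and total values did not overlap for 21 of 30 members in WT and for 20 of 30 in Fmr1 KO, beside 40.1% and 42.2% of all genes tested. Member values tended to be low on arrays of replicate 1, which held the lowest value of its group for 17 of 30 members in Fmr1 KO polyribosomal RNA, 14 in Fmr1 KO total, 13 in WT total and 11 in WT polyribosomal RNA. The highest polyribosomal values were on replicate 4 in WT, for 12 members, and on replicate 5 in Fmr1 KO, for 15. Those polyribosomal arrays also had the lowest mean r with the other arrays of their group, 0.9932 and 0.9934. The counts of lowest and highest values were not made over all genes, so they cannot be read as a trait of the members. Without replicate 4, WT had 13 rises and 15 falls among the members, and without replicate 5, Fmr1 KO had 13 and 13. Without replicate 1 there were 13 rises and 12 falls in WT and 13 and 11 in Fmr1 KO.

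Sequence around the gene starts was searched for motifs known from genes of mitochondrial proteins. The RefSeq promoter table for GRCm38.p6, with 250 bases before and 50 after each annotated start, matched 28 of the 32 genes. The 8 letters ATGGCGGC are the core of the TISU element, a start-site element known for translation of mRNAs with very short leaders, and also of sites of the factor YY1. On the sense strand within the first 50 bases after the start they occurred in 6 of 26 tested members (23.1%) and in 3.08% of 7916 tested genes with a promoter in the table. Of the 6 genes, Timm50, Timm44, Samm50, Mtx1 and Pmpcb rose in WT polyribosomal RNA, and Grpel1 was not called. Among the 244 tested genes with the element, 44.3% rose and 23.8% fell, beside 37.7% and 28.2% of all 7916. The 30 bases around each match follow because they are what these members share at the start, with the 8 letters in capitals.
Timm50, minus strand of chr7:28312019-28312048: gtggcgtcagcgcaagATGGCGGCctcggc
Timm44, minus strand of chr8:4275874-4275903: cacgggctcttccaacATGGCGGCggcagc
Grpel1, plus strand of chr5:36465178-36465207: gacctcgggggcagtcATGGCGGCtcggtg
Samm50, plus strand of chr15:84192236-84192265: ccctaggtggtacaacATGGCGGCgctcgg
Mtx1, minus strand of chr3:89213880-89213909: tcagagagcgtacaagATGGCGGCgcccat
Pmpcb, plus strand of chr5:21737162-21737191: tttctccaccgcagagATGGCGGCggccgc
The element began 10 to 19 bases after the annotated start, counted from 1. None of the 11 members that fell and had a promoter in the table carried it in this window. Over all tested genes with a promoter, 58 of the 2229 that fell and 108 of the 2985 that rose carried it. A count of 0 among 11 is therefore near the background.

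A second motif marked members on both sides. CCGGAAG, the core that ETS factors such as GABPA bind in many nuclear genes of mitochondrial proteins, was found on either strand in 15 of 28 member promoters (53.6%) and in 9.93% of the 27025 genes in the table. Restricted to tested genes, the shares were 53.8% of 26 members and 20.9% of 7916 genes. Of the 14 tested members with a match, 8 rose and 5 fell, and of all 1653 tested genes with one, 41.3% rose and 26.7% fell. The NRF1 motif (GCGCA, any base, then GCGC, on either strand) was in the promoters of Timm8b, Pam16 and Tomm20, which fell. It was no more frequent in tested members (11.5%) than in all tested genes (12.6%), and of the 999 tested genes with it 38.2% rose and 27.4% fell, close to the shares of all 7916. A start with C and then 4 pyrimidines, as in the mRNAs of ribosomal proteins, was at 0 of 28 members and at 3.01% of genes in the table. These motifs were chosen after the values were known, a match is no proof of a site, and no test was made. The 100 bases before the start are shown for 2 members that fell, Timm8b and Tomm22, and for 2 that rose, Timm10 and Tomm70a, with CCGGAAG and its complement CTTCCGG in capitals. In Tomm22 the matches of both strands overlap.
Timm8b, plus strand of chr9:50603801-50603900: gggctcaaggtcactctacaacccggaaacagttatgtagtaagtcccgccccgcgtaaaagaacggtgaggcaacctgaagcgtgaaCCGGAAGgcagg
Tomm22, plus strand of chr15:79670768-79670867: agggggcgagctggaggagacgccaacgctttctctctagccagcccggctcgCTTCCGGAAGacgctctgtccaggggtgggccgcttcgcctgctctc
Timm10, plus strand of chr2:84826921-84827020: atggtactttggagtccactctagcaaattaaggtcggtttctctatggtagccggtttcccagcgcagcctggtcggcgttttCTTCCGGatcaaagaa
Tomm70a, plus strand of chr16:57121614-57121713: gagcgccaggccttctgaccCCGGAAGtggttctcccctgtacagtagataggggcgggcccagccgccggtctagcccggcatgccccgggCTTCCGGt

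The small TIM chaperones held the largest falls. They form ring-shaped complexes that keep hydrophobic inner and outer membrane proteins soluble in the intermembrane space, Timm8a1 and Timm8b with Timm13, and Timm9 with Timm10. Of 6 tested, 4 fell, 1 rose and 1 was not called in each genotype. The shares of all genes tested were 28.4% lower and 37.5% higher in WT, and 28.2% and 38.7% in Fmr1 KO. The median difference of the 6 was -1.63 in WT and -1.60 in Fmr1 KO, beside 0.09 over all genes. Counts by role, here and below, were not tested against the shares of all genes. The paralogue Timm8a2 stayed below the limit of 4 on all arrays and was not tested.

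Timm8b (probe set 1431665_a_at, gene at chr9:50603901-50605320) had WT total values from 9.87 to 10.20 with a median of 10.07, and WT polyribosomal values from 6.16 to 6.89 with a median of 6.56. Its Fmr1 KO values ran from 9.77 to 10.11 (median 9.91) in total and from 6.57 to 7.06 (median 6.85) in polyribosomal RNA. The groups lay far apart, and every polyribosomal value was below every total value. The difference was -3.53 (SE 0.115, adjusted p = 4.46e-09), an 11.6-fold lower value, in WT and -3.07 (SE 0.111, adjusted p = 5.52e-09), an 8.42-fold lower value, in Fmr1 KO. Among 9725 genes tested in WT it had the 5th lowest difference.

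Timm13 (1455211_a_at), the partner of Timm8a1 and Timm8b, stood at 10.37 to 10.72 (median 10.60) in WT total and at 8.22 to 8.53 (median 8.41) in WT polyribosomal RNA. Fmr1 KO arrays gave 10.47 to 10.62 (median 10.54) and 8.04 to 8.67 (median 8.30). Again no values overlapped, and the fall was 4.50-fold in WT (-2.17, SE 0.0775, adjusted p = 6.32e-09) and 4.62-fold in Fmr1 KO (-2.21, SE 0.0951, adjusted p = 1.5e-08).

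Timm8a1 (1416345_at), on the X chromosome at chrX:134537256-134541670 and the mouse counterpart of the deafness and dystonia gene, ran from 8.05 to 8.40 (median 8.24) in WT total and from 6.26 to 6.66 (median 6.52) in WT polyribosomal RNA. The Fmr1 KO ranges were 8.06 to 8.58 (median 8.25) and 6.25 to 6.69 (median 6.50). It fell 3.30-fold in WT (-1.72, SE 0.0991, adjusted p = 1.25e-07) and 3.45-fold in Fmr1 KO (-1.79, SE 0.0849, adjusted p = 2.85e-08), with no overlap of groups.

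Timm10b (1417916_a_at), the small TIM that sits on the TIM22 complex, had 9.60 to 9.86 (median 9.71) in WT total and 7.80 to 8.61 (median 8.19) in WT polyribosomal RNA. In Fmr1 KO it had 9.56 to 9.77 (median 9.62) and 7.89 to 8.57 (median 8.22). All polyribosomal values were the lower ones, with falls of 2.92-fold (-1.54, SE 0.117, adjusted p = 8.52e-07) and 2.68-fold (-1.42, SE 0.0951, adjusted p = 3.13e-07).

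The partners Timm9 and Timm10 did not follow these 4. Timm10 (1417499_at) rose, from 9.01 to 9.54 (median 9.32) in WT total to 9.04 to 10.44 (median 10.10) in WT polyribosomal RNA. Its Fmr1 KO values were 9.09 to 9.52 (median 9.33) and 9.14 to 10.80 (median 10.00). The groups overlapped through replicate 1. The polyribosomal value was higher in 6 of 6 lysates of both genotypes, but in replicate 1 by only 0.03 in WT and 0.05 in Fmr1 KO. In WT replicate 5 it was higher by 0.18, and in the other lysates by 0.52 to 1.28. The mean differences were 0.64 (SE 0.138, adjusted p = 0.0018) and 0.67 (SE 0.133, adjusted p = 0.000887). Timm9 had differences of -0.15 in each genotype and was not called (adjusted p = 0.298 and 0.213), with polyribosomal values from 8.46 to 9.66 around total values of 9.08 to 9.39 in WT. Without replicate 4 the Timm9 difference in WT was -0.26 and was called (adjusted p = 0.0359).

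**Figure D2:**
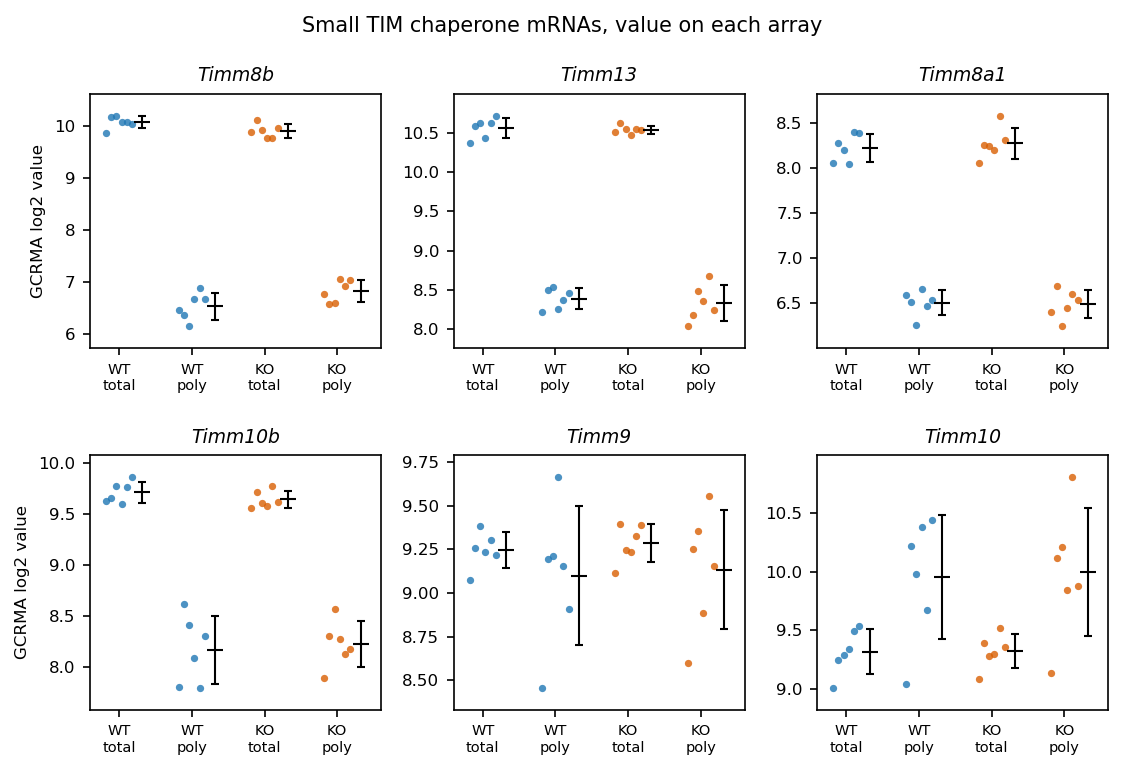
GCRMA log2 values of the 6 tested small TIM chaperone mRNAs on each array. Each dot is 1 array, the horizontal tick and bar are the mean and SD of 6 arrays, and the y axes differ between panels and do not start at 0. Timm8b, Timm13, Timm8a1 and Timm10b have polyribosomal values below all total values, whereas the 2 RNA kinds overlap for Timm9 and Timm10.

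The inner membrane channels showed smaller and mixed differences. Of the 5 TIM23 channel genes, WT had 2 falls, 1 rise and 2 not called (median -0.16). Beside this, 28.4% of all genes tested in WT fell and 37.5% rose. Timm23, the pore, fell by 0.71 in WT and by 0.58 in Fmr1 KO without overlap of values. Its partner Timm17a, a paralogue of Timm17b, fell by 0.35 in WT (adjusted p = 0.0178), but the call was lost without replicate 1 (-0.28, adjusted p = 0.0666) or replicate 5 (-0.27, adjusted p = 0.0609), and its Fmr1 KO difference of -0.25 was not called (adjusted p = 0.0854). Timm17b, on the X chromosome, had 0.17 and 0.05 and was called in neither genotype. Timm50, the presequence receptor whose start is shown above, rose by 0.39 in each genotype (adjusted p = 0.0118 and 0.00821). Timm21, which links TIM23 to the respiratory chain, had -0.16 and 0.06, neither called. Without replicate 4 its WT difference was -0.31 and was called (adjusted p = 0.0165).

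The TIM22 complex was divided as well. Timm22, its carrier insertion channel, fell by 0.86 in WT and 0.64 in Fmr1 KO, and its metazoan subunit Timm29 rose by 0.50 and 0.74. Neither gene had overlapping groups. In the motor of TIM23, Timm44, which anchors mitochondrial Hsp70 at the channel, rose by 0.41 and 0.51, and Pam16, a J-like regulator of that Hsp70, fell by 0.51 and 0.45.

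The nucleotide exchange factors of the motor differed from each other. Grpel2 (1452262_at) had 7.67 to 8.21 (median 7.90) in WT total and 8.40 to 9.30 (median 8.63) in WT polyribosomal RNA. Fmr1 KO arrays gave 7.70 to 8.16 (median 7.82) and 8.38 to 9.57 (median 8.61), so that the groups were apart in both genotypes. It rose 1.73-fold in WT (0.79, SE 0.105, adjusted p = 5.69e-05) and 1.82-fold in Fmr1 KO (0.87, SE 0.114, adjusted p = 4.31e-05). A dimmer Grpel2 probe set, with a WT total mean of 4.99, had -0.03 in WT and was not called. Grpel1, the other exchange factor, whose start carries the element described above, had -0.17 and -0.08 and was called in neither genotype.

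The TOM complex showed 1 rise against 3 falls among its channel and small subunits in each genotype, with medians of -1.10 in WT and -1.06 in Fmr1 KO. Of all genes tested, 37.5% rose and 28.4% fell in WT, and 38.7% and 28.2% in Fmr1 KO. Tomm40 (1426118_a_at), the barrel that forms the entry pore, had the largest rise of all members in WT. Its WT values ran from 8.22 to 8.56 (median 8.39) in total and from 9.20 to 9.53 (median 9.38) in polyribosomal RNA. Fmr1 KO arrays spread more, at 8.16 to 8.68 (median 8.45) and 8.68 to 9.90 (median 9.22), where the lowest polyribosomal and the highest total value met. The rise was 1.97-fold in WT (0.98, SE 0.0924, adjusted p = 4.64e-06) and 1.83-fold in Fmr1 KO (0.87, SE 0.135, adjusted p = 0.000148). Among all genes tested in WT, 97.6% had a lower difference.

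Its paralogue Tomm40l (1429382_at) went the other way. WT values were 7.73 to 8.03 (median 7.84) in total and 6.13 to 6.82 (median 6.61) in polyribosomal RNA, and Fmr1 KO values were 7.41 to 8.03 (median 7.84) and 6.19 to 6.95 (median 6.56). No polyribosomal value reached a total value. The falls were 2.47-fold (-1.30, SE 0.102, adjusted p = 1.09e-06) and 2.36-fold (-1.24, SE 0.104, adjusted p = 1.55e-06).

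Tomm7 (1434732_x_at), a small subunit that regulates assembly of the complex, stood at 9.74 to 9.96 (median 9.83) in WT total and 7.87 to 8.38 (median 8.16) in WT polyribosomal RNA. Fmr1 KO gave 9.70 to 9.96 (median 9.77) and 7.90 to 8.42 (median 8.15). The groups were far apart, and Tomm7 fell 3.23-fold in WT (-1.69, SE 0.0864, adjusted p = 5.64e-08) and 3.13-fold in Fmr1 KO (-1.65, SE 0.0964, adjusted p = 1.23e-07). Tomm22, the central receptor, whose promoter is shown above, fell by 0.89 and 0.88 without overlap.

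The receptors that bind precursors on the surface split in the same manner. Tomm20, which reads presequences, fell by 0.51 in WT and 0.44 in Fmr1 KO, and Tomm70a, which takes carrier precursors from cytosolic chaperones, rose by 0.25 (adjusted p = 0.0132) and 0.31 (adjusted p = 0.00458). The Tomm20 paralogue Tomm20l stayed near a log2 value of 2.05 to 2.18 in WT group means and was not tested.

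The sorting and assembly machinery and the processing peptidase rose in all 5 members, in both genotypes. The share of all genes tested that rose was 37.5% in WT and 38.7% in Fmr1 KO. Samm50 (1455800_x_at), the barrel that inserts other barrel proteins such as Tomm40 into the outer membrane, had WT total values from 10.51 to 10.80 (median 10.57) and WT polyribosomal values from 11.45 to 11.67 (median 11.58). Its Fmr1 KO values were 10.41 to 10.66 (median 10.52) and 11.40 to 11.67 (median 11.60). The groups lay clearly apart, with rises of 1.96-fold (0.97, SE 0.0859, adjusted p = 2.89e-06) and 2.06-fold (1.05, SE 0.0847, adjusted p = 1.21e-06).

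Mtx1 (1418521_a_at), a metaxin of the same complex, ran from 5.63 to 5.75 (median 5.69) in WT total and from 6.35 to 6.64 (median 6.41) in WT polyribosomal RNA. Fmr1 KO ranges were 5.60 to 5.75 (median 5.69) and 6.36 to 6.70 (median 6.52). It rose 1.71-fold (0.77, SE 0.082, adjusted p = 1.1e-05) and 1.79-fold (0.84, SE 0.0817, adjusted p = 4.62e-06), again without overlap. The second metaxin Mtx2 rose by 0.41 and 0.53. Pmpca and Pmpcb, the alpha and beta subunits of the peptidase, rose by 0.42 and 0.54 in WT and by 0.36 and 0.62 in Fmr1 KO, and the groups overlapped for Pmpca.

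**Figure D3:**
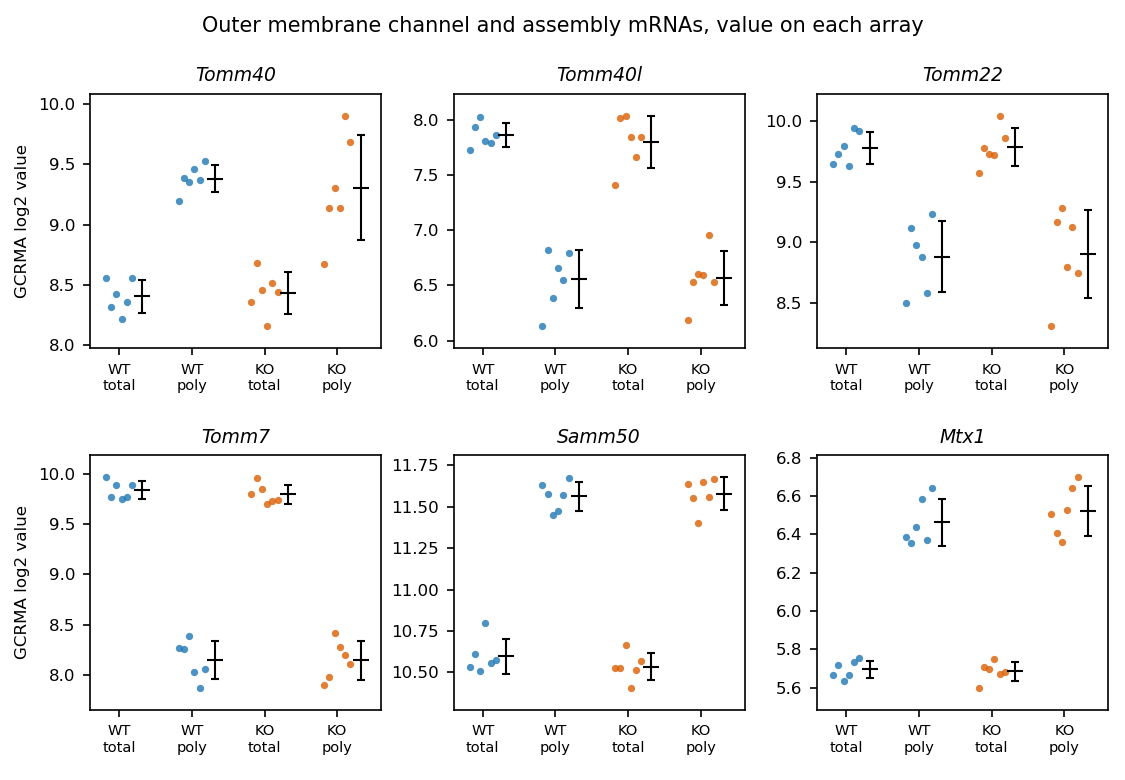
GCRMA log2 values of 4 TOM and 2 sorting and assembly mRNAs on each array. Each dot is 1 array, the horizontal tick and bar are the mean and SD of 6 arrays, and the y axes differ between panels and do not start at 0. Tomm40, Samm50 and Mtx1 are higher in polyribosomal RNA and Tomm40l, Tomm22 and Tomm7 are lower.

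Both members that carry a family name but were not placed in an import complex here were called. The share called over all genes tested was 65.9% in WT and 66.9% in Fmr1 KO. Tomm34 (1448345_at), a cytosolic cochaperone of Hsp70 and Hsp90, ran from 5.75 to 6.14 (median 5.96) in WT total and from 6.53 to 7.04 (median 6.84) in WT polyribosomal RNA. In Fmr1 KO the values were 5.95 to 6.16 (median 6.05) and 6.77 to 7.05 (median 6.99). They did not overlap, and Tomm34 rose 1.84-fold (0.88, SE 0.0792, adjusted p = 3.32e-06) and 1.86-fold (0.89, SE 0.0747, adjusted p = 1.52e-06). Timmdc1, an assembly factor of respiratory complex I, fell by 0.28 in WT (adjusted p = 0.0102) and 0.26 in Fmr1 KO (adjusted p = 0.0244). The Fmr1 KO call was lost without replicate 1 (adjusted p = 0.0726) or replicate 4 (adjusted p = 0.0787).

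Genes with several probe sets allowed a check on other stretches of the same mRNA. Timm8b, Timm13, Timm10, Tomm40 and Tomm34 had 1 probe set each and so had no such check. In WT, 15 member genes had several tested probe sets, and for 13 of them all probe sets had the same call. The exceptions were Grpel2, given above, and Tomm70a, where 3 of 4 rose and 1 had 0.14 and was not called. Timm17b had differences of opposite sign, -0.04 and 0.17, with neither called. All 6 probe sets of Tomm20 fell, by 0.51 to 1.06, and those of Tomm7 fell by 1.66 to 2.58. The brightest probe sets of Tomm7, Samm50, Pmpcb, Timm17b, Pam16 and Mtx2 have names ending in _x_at or _s_at, a design that may pick up related transcripts. With the brightest probe set of the _at or _a_at kind alone, an alternative added after the data were seen, 12 rose and 12 fell of 28 genes in WT. Over all probe sets, 22 of 55 tested rose and 26 fell, beside 36.2% and 29.1% of all 17893 probe sets tested.

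**Figure D4:**
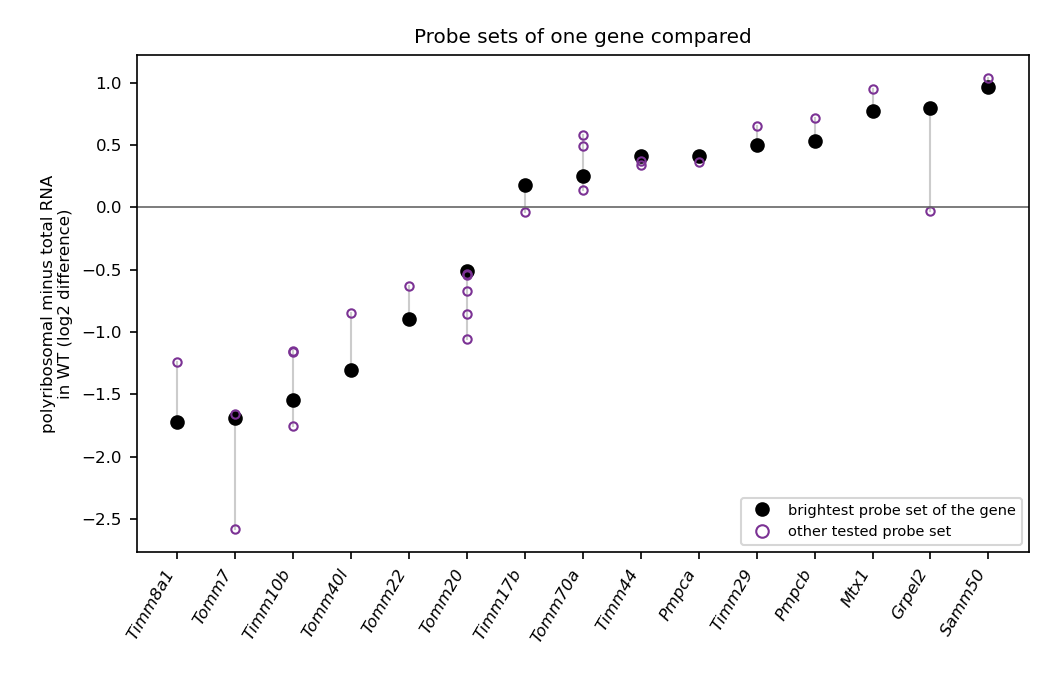
Polyribosomal minus total RNA in WT for the 15 member genes with several tested probe sets. The y axis is the log2 difference, filled points are the brightest probe set of a gene and open points the others. Points of a gene lie on 1 side of 0 except for Timm17b and Grpel2, and the widest ranges are those of Tomm7 (0.928) and Grpel2 (0.821).

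No import machinery mRNA differed between Fmr1 KO and WT past the threshold. In polyribosomal RNA 0 of 30 members were called, with 0.0103% of all genes called, and in total RNA 0 of 30, with 0.0413%. The test of whether the polyribosomal minus total difference depends on genotype called 0 of 30, with 0% of all genes called. At an unadjusted p under 0.05 there was 1 member in each of the 3 tests, Timm8b each time, and these tests share arrays. The same was true of 2.22%, 5.05% and 2.34% of all genes, so 1 of 30 is near the background. The smallest adjusted p of a member was 0.9999, 0.9819 and 0.9991 in the 3 tests. In cortex as a whole, fewer cells of a type and less RNA per cell cannot be told apart.

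Timm8b, whose values are given above, was 0.29 higher in Fmr1 KO polyribosomal RNA (95% interval 0.01 to 0.58, unadjusted p = 0.0432, adjusted p = 0.9999) and 0.16 lower in total RNA (-0.32 to -0.01, unadjusted p = 0.0405, adjusted p = 0.9819). The values of the genotypes overlapped in both RNA kinds. Between arrays of the same replicate number, Fmr1 KO was the higher one in 6 of 6 for polyribosomal and in 1 of 6 for total RNA. With that number as a block the adjusted p was 0.968 and 0.517, and 0.999 for the interaction. The interaction was 0.46 (0.10 to 0.81, unadjusted p = 0.0144, adjusted p = 0.9991), the largest of the 30 members. None of these passed the correction, with or without the block.

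The members as a group lay close to 0. Differences between genotypes ran from -0.08 to 0.29 in polyribosomal RNA, with a median of 0.04 and 25 of 30 above 0, beside a median of 0.01 and 53.8% above 0 over all genes. In total RNA they ran from -0.16 to 0.15, with a median of -0.02 and 21 of 30 below 0, beside -0.01 and 55.4% below 0. The interaction ran from -0.12 to 0.46, with a median of 0.07 and 23 of 30 above 0, beside 0.02 and 56.5% above 0. The 95% intervals lay within 0.5 of 0 on the log2 scale for 27 members in polyribosomal RNA, 30 in total RNA and 25 for the interaction. Their median half-width was 0.291, 0.14 and 0.312, which bounds the differences that these arrays can show.

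**Figure D5:**
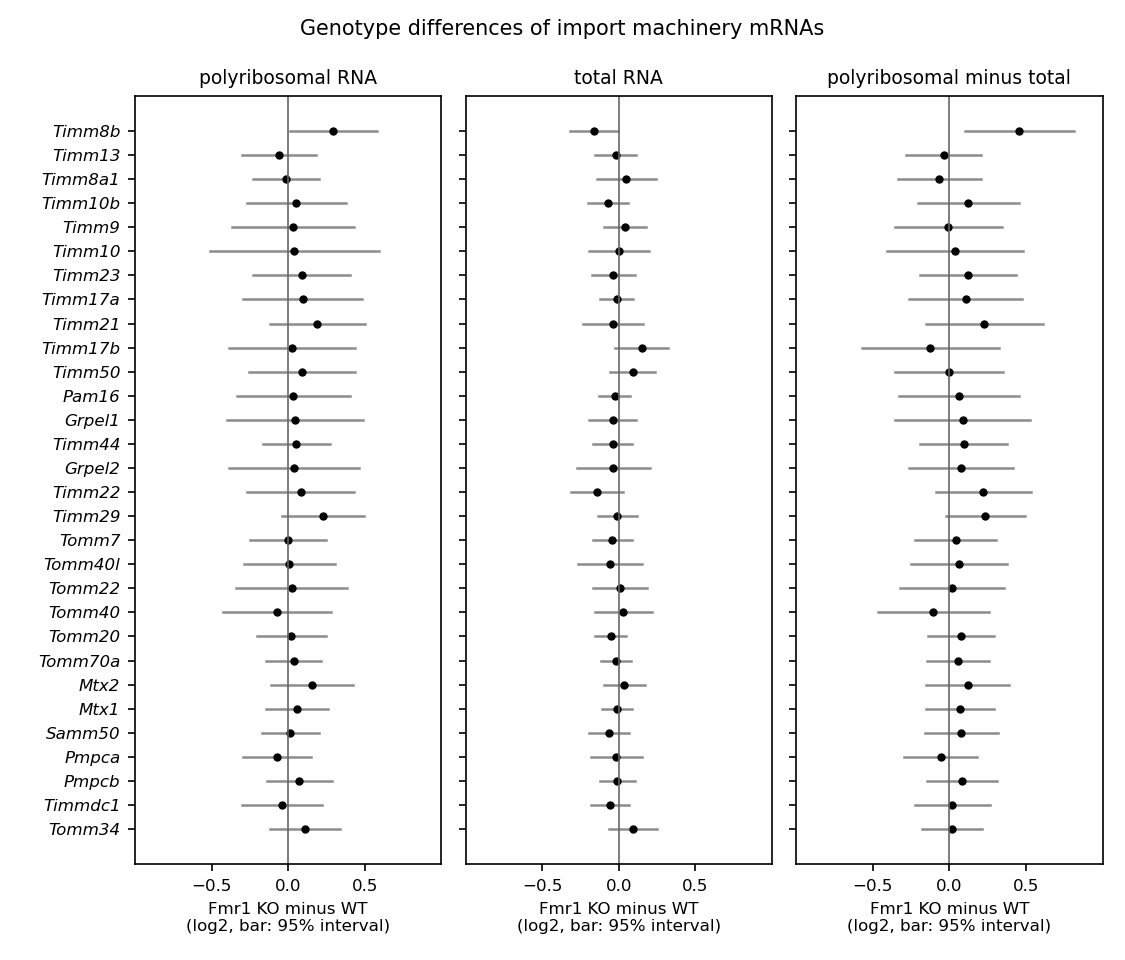
Fmr1 KO minus WT for the 30 tested member genes in polyribosomal RNA, in total RNA and for the polyribosomal minus total difference. The x axes are log2 differences, points are estimates and bars are 95% intervals, not adjusted for the number of genes. Timm8b is the only gene whose bar excludes 0 in each panel, and its adjusted p is 0.9819 or more in all 3.

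Other genes of import and of what follows it were listed for comparison under 40 symbols, and 35 of these symbols were tested. In WT 17 rose, 8 fell and 10 were not called, with a median of 0.20, and in Fmr1 KO 19 rose and 9 fell, with a median of 0.30. Over all genes tested, 37.5% rose and 28.4% fell in WT, and 38.7% and 28.2% in Fmr1 KO, with medians of 0.09. Mitochondrial peptidases and quality control proteases rose in 9 of 12 tested genes in each genotype. The largest rise was that of Oma1, the stress-activated inner membrane protease, at 1.35 in WT and 1.39 in Fmr1 KO, and Immp1l, of the inner membrane peptidase, fell by 0.65 and 0.56. Yme1l1, of the same group, also fell in Fmr1 KO (-0.51, adjusted p = 0.000395) and was not called in WT (-0.18).

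Both genes of the oxidative folding relay that traps small TIM proteins in the intermembrane space fell, Chchd4 by 0.84 in WT and 0.80 in Fmr1 KO and Gfer by 0.35 and 0.31. Of the 4 tested matrix chaperones and motor partners, Hspa9, the mitochondrial Hsp70 itself, had 0.11 and 0.03 and was not called, while Dnajc15 fell by 1.27 and 1.17. In the MICOS complex of the cristae junctions 2 genes rose and 2 fell, with the largest fall of the list in Micos10, at -1.82 in WT and -1.69 in Fmr1 KO. Of the 8 insertion partners 4 rose and 1 fell in WT, and of the 3 porins 2 rose, beside 37.5% rising and 28.4% falling over all genes. The counts of these short lists were not tested against the shares of all genes. None of the 35 was called in any of the 3 genotype tests.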

How the data were processed

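The authors deposited GCRMA values, per the submitters' processing notes; that the deposited values are log2 was judged from their range. GCRMA corrects background, normalizes between arrays and summarizes probe sets; its version and the set of arrays normalized together are not given in the sources used here. Symbols came from the platform annotation, sequences from RefSeq (GRCm38.p6). The two-sided tests used limma 3.58.1 (lmFit and eBayes, under R 4.3.3) on probe sets with a log2 value of at least 4 on at least 6 arrays compared. Each lysate gave both RNA kinds, and they were compared with the replicate number as a block on the assumption, not stated in the labels, that equal numbers mark one lysate. After removal of group means, same-numbered polyribosomal and total arrays had residual correlations of 0.0211 to 0.525 (WT) and 0.156 to 0.474 (Fmr1 KO). A WT polyribosomal array matched the total array of its own number best in 5 of 6. A WT total array matched the polyribosomal array of its own number best in 2 of 6. In Fmr1 KO these counts were 6 of 6 and 5 of 6. Genotypes were compared without the block, because the labels do not tie the number to the litter. Same-numbered Fmr1 KO and WT arrays had residual correlations of 0.133 to 0.532 in total and -0.137 to 0.625 in polyribosomal RNA, and the number as a block was an alternative; the interaction used the 12 lysate differences. Fmr1 was compared by exact permutation. A gene was represented by its probe set with the highest mean over 24 arrays. Values in full are given for the 6 largest falls and 6 largest rises in WT and the member with the smallest p in each genotype test; other lists are given by counts and leading genes, and further genes of those lists were chosen after their values were seen. Protein lengths were planned and are not used here. The members, lists and motifs were chosen with earlier results of these data known. Scripts were tested on simulated data; figures used matplotlib 3.10.9 in Python 3.11.15.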

Additional observations from a re-analysis of the deposited data

Results flagged for a closer look

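Samm50 in WT total RNA had a single high array. Replicate 4 stood at a log2 value of 10.80, with the next array at 10.61 and the lowest at 10.51, so that this gap took 0.64 of the range of the group. It was the only such array among 48 groups of values checked, and chance sets apart about 1 group in 20. The polyribosomal values of Samm50 in WT, from 11.45 upward, were all above it.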

How the results depend on the processing

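Alternatives were no filter on dim probe sets, a limit of 6, quantile normalization, median centring, a trended robust fit, array weights, means of the probe sets of a gene, the other use of the replicate block, the _at or _a_at probe sets and leaving out each replicate number. Across them member counts stayed within 1.5 times the main ones. Leaving out 1 replicate number gave 12 to 15 falls and 13 rises in WT, 11 to 13 falls and 13 rises in Fmr1 KO, and 0 calls in the genotype tests. Without the replicate block the polyribosomal comparison gave the same 13 rises and 13 falls in WT and 13 and 12 in Fmr1 KO. With the replicate number as a block the genotype tests called 0 members. Single calls moved for Timm17a, Timm9, Timm21 and Timmdc1, as given above, and Timm17a was also called in Fmr1 KO with quantile normalization (adjusted p = 0.0438), array weights (0.0182) or without replicate 5 (0.0396).

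Signal near the dim limit bounds what can be said of Timm21, Mtx1, Timm22, Timmdc1, Tomm34 and Timm44. Lighter gradient fractions were not measured, and 6 pools a group limit the genotype tests to the intervals given.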
